A study of Homo sapiens with 2 samples.

Results

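Cadherins and protocadherins are calcium-dependent adhesion proteins of the cell surface, and 49 of their genes were described here out of 14884 genes named on the array. They were chosen by symbol, with earlier results of these data known. The symbols were CDH or PCDH with digits, the clusters PCDHA, PCDHB and PCDHG, the desmosomal DSC and DSG, FAT, CELSR, CDHR and DCHS. Each gene was represented by its brightest probe set. The cells were UACC62, an established human melanoma line. One culture had been transfected with an siRNA specific for FOSL1 and one with a non-targeting siRNA, and both were harvested 3 days later. No other allele, drug or cell line was used, and each condition was measured on 1 array. The question was which transcripts differ when FOSL1, a FOS-family subunit of the transcription factor AP-1, is depleted. With 1 array per condition no replicate error, test or p-value could be given, so each difference below describes this pair of arrays, and depletion of FOSL1 cannot be told apart from other effects of the siRNA.

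Classical cadherins join neighbouring cells through their outer repeats and hold the actin cytoskeleton through catenins, and the switch from E-cadherin to N-cadherin is a known step in melanoma. Desmosomal cadherins are instead tied to intermediate filaments and are typical of keratinocytes and other epithelia. Clustered protocadherins are best known from neurons, where each cell expresses its own small set of them as a surface code. The beta genes of that cluster lie side by side on chromosome 5, and each has a promoter of its own. FAT and Dachsous proteins are very large cadherins that act in Hippo signalling and planar cell polarity.

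The names on the array set what could be seen. RefSeq holds 114 genes of these names, and 65 of them were not analysed here because the table of probe set names did not hold them. Those 65 comprise 21 CDH genes, E-cadherin (CDH1), N-cadherin (CDH2) and P-cadherin (CDH3) among them, all 40 alpha and gamma protocadherins, the 3 CELSR genes and DCHS2. Of the RefSeq genes with these symbols, all 19 beta protocadherins, all 7 desmosomal cadherins and all 5 CDHR genes had a named probe set. So did all 11 non-clustered protocadherins whose symbol is PCDH and digits alone. Non-clustered protocadherins with a letter after the digits fell outside the rule and were not counted. Of the 49 members, 46 had 1 probe set and 3 had several, and none shared its values with another probe set.

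Values were log2 intensities of probe sets, and differences are the log2 value with FOSL1 siRNA minus that with control siRNA. Levels of different genes are not comparable on this scale, because each probe set responds in its own way. A gene passed the filter on dim genes when its mean log2 value was at least 8.02, the median over named genes, and 17 members passed it while 32 did not. The targeted gene FOSL1 had a log2 value of 10.38 with FOSL1 siRNA and 11.90 with control siRNA, a level 2.88-fold lower. Of 11 named melanocyte markers 8 passed the filter, as did 1 of 11 named markers of keratinocytes and other epithelia, 1 of 2 of fibroblasts, 2 of 4 of endothelium and 1 of 3 of leukocytes. Between the arrays, the leukocyte list's CD68 had 10.17 with FOSL1 siRNA and 10.79 with control siRNA, and the fibroblast list's LUM had 11.53 with FOSL1 siRNA and 11.05 with control siRNA. Whether other cell types had a part in the differences below was not tested.

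The beta protocadherins were higher nearly throughout with FOSL1 siRNA. Of the 19 genes, 18 had a difference above 0, where 45.4% of all named genes did, and their median was 0.27, against -0.02 over all named genes. The exception was PCDHB1, which stands first in the row on the chromosome. Again 18 of 19 were above 0 after each array was centred on its median and after quantile normalization. These scalings could move little, because the arrays had nearly the same distribution. The count was also 18 after removal of a trend on level or on gene span. Most of the differences were small, and 3 of the 19 reached 1.5-fold, where 1.91% of all named genes did.

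Most of the beta promoters searched also share a short stretch, shown here because none of the other members' promoters searched hold it. RefSeq promoter windows of GRCh38.p14, each 250 bases before to 50 after an annotated start, were found for 14 of the 19 beta genes. In these 14 the start was the gene's first base. The 10-base word held by most of them, searched on both strands, was GGTGGCGCTG. It was chosen after the promoters were seen, as the word in most beta windows, so the choice itself raises its share there. Setting that share against other windows is therefore no test. The word contains CGCT, the core of the conserved sequence element known from clustered protocadherin promoters, where the insulator protein CTCF binds. In the lines below the word is in capitals, the sequence runs 5′ to 3′ on the plus strand, and 20 bases are given on either side.
PCDHB8, chr5:141177768-141177817: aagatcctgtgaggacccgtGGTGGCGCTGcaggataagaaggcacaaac
PCDHB13, chr5:141213856-141213905: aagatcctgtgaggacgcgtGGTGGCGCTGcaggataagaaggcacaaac
PCDHB4, chr5:141121714-141121763: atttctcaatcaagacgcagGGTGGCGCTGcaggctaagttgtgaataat
PCDHB15, chr5:141245305-141245354: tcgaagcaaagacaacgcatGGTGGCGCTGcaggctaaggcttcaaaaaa
PCDHB2, chr5:141094535-141094584: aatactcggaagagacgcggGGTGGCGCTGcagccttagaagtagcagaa
PCDHB16, chr5:141182301-141182350: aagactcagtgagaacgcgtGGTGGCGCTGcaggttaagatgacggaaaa
PCDHB12, chr5:141208634-141208683: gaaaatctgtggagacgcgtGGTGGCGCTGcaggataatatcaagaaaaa
PCDHB5, chr5:141135170-141135219: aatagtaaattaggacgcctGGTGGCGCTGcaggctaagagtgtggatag

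The first 5 of these lines belong to the beta genes with a matched window and the highest differences, and the others to genes with smaller ones. The word stood in 12 of the 14 beta windows, its first base between 2 and 84 bases before the gene start (at 2, in PCDHB8, it runs across the start), and in 0.276% of the 35116 promoter windows of all genes. Windows were found for 23 of the other members, 30 in all, and the word stood in none of them. Some of those 30 lay at a start inside the gene, that of CDHR4 among them. It was also in none of the 38 windows of alpha and gamma protocadherins. PCDHB1 and PCDHB14 lacked it by 1 of its 10 bases. PCDHB1 had a lower value with FOSL1 siRNA and PCDHB14 a higher one. The shorter CGCT alone was in all 14 beta windows, but also in 37 of the 38 alpha and gamma windows and in 70.0% of all windows. CGCT lies within the longer word. The AP-1 motif TGANTCA, which reads alike on both strands, was in none of the 14 beta windows, in 1 of the 44 member windows (that of CDHR4) and in 7.71% of all windows. These matches describe letters in a short window and show no binding.

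PCDHB8 had the highest difference of all 49 members. Its log2 value was 6.98 with FOSL1 siRNA and 5.10 with control siRNA, a difference of 1.89 or 3.69-fold. PCDHB13 had 7.80 with FOSL1 siRNA and 6.69 with control siRNA, a difference of 1.11 or 2.16-fold. PCDHB4 had 6.77 with FOSL1 siRNA and 5.84 with control siRNA, a difference of 0.93 or 1.91-fold. In the control array all 3 lay under the median of all probe sets, 6.88. These probe sets were not shown to be above background there, so the exact folds are uncertain. All 3 were under the filter on dim genes in both arrays, and 2.69% of genes under it were at least 1.5-fold higher with FOSL1 siRNA. PCDHB8 and PCDHB13 are close copies of each other at the promoter: 49 of the 50 bases printed above were identical, where the next closest of 66 pairs shared 40 and the median pair 30. The word's 10 bases are alike in every pair, because each stretch was cut around it. Beta protocadherins are paralogs with similar coding sequence, so that a probe set can read transcripts of a neighbour. The probes' sequences were not used here, and the part of such shared signal was not tested.

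Among the 12 beta genes past the filter the differences were smaller, with a median of 0.22, against 0.45 for the 7 under it. The pseudogene PCDHB17P had 8.76 with FOSL1 siRNA and 8.26 with control siRNA, a difference of 0.51. PCDHB15, the last gene of the row, had 9.88 with FOSL1 siRNA and 9.42 with control siRNA, a difference of 0.47. PCDHB2 had 10.19 with FOSL1 siRNA and 9.77 with control siRNA, a difference of 0.42. These were the 3 largest differences of the bright beta genes, all under 1.5-fold, and PCDHB17P reached 1.5-fold at 0.60 once a trend on gene length along the genome (span) had been taken out.

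For scale, the SD between differences measured by the 2 brightest probe sets of a gene was 0.169 on these arrays. It was taken over the 213 genes with 2 probe sets past the filter, so it does not cover dim genes. Both probe sets were read on the same 2 arrays, so this SD holds no spread between cultures, transfections or arrays. PCDHB14 had 9.47 with FOSL1 siRNA and 9.14 with control siRNA, a difference of 0.33. PCDHB10 had 8.18 with FOSL1 siRNA and 7.91 with control siRNA, a difference of 0.27, and passed the filter only through the array with FOSL1 siRNA. PCDHB3 had 10.77 with FOSL1 siRNA and 10.54 with control siRNA, and PCDHB16 had 10.37 with FOSL1 siRNA and 10.15 with control siRNA. Their differences were 0.23 and 0.22, so that both were slightly higher with FOSL1 siRNA (1.17-fold and 1.16-fold).

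For the other 5 beta genes past the filter the arrays lay closer still. PCDHB12 had 8.90 with FOSL1 siRNA and 8.72 with control siRNA, and PCDHB7 had 9.73 with FOSL1 siRNA and 9.55 with control siRNA. PCDHB6 had 11.74 with FOSL1 siRNA and 11.59 with control siRNA, and PCDHB5 had 11.69 with FOSL1 siRNA and 11.56 with control siRNA. Their differences ran from 0.19 for PCDHB12 through 0.18 and 0.15 to 0.13 for PCDHB5. The pseudogene PCDHB18P had 8.96 with FOSL1 siRNA and 8.89 with control siRNA, a difference of 0.07, the lowest of the 12.

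The other beta genes were dim. PCDHB11 had 7.87 with FOSL1 siRNA and 7.42 with control siRNA, and PCDHB9 had 7.17 with FOSL1 siRNA and 6.85 with control siRNA. Their differences of 0.45 and 0.33 lay within the range of the bright genes. The pseudogene PCDHB19P differed by 0.09. PCDHB1 had 5.61 with FOSL1 siRNA and 5.85 with control siRNA, a difference of -0.24, and among dim genes 41.0% lay above 0. The 16 protein-coding beta genes had a median of 0.30 and the 3 pseudogenes one of 0.09, all 3 of them above 0.

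**Figure D1:**
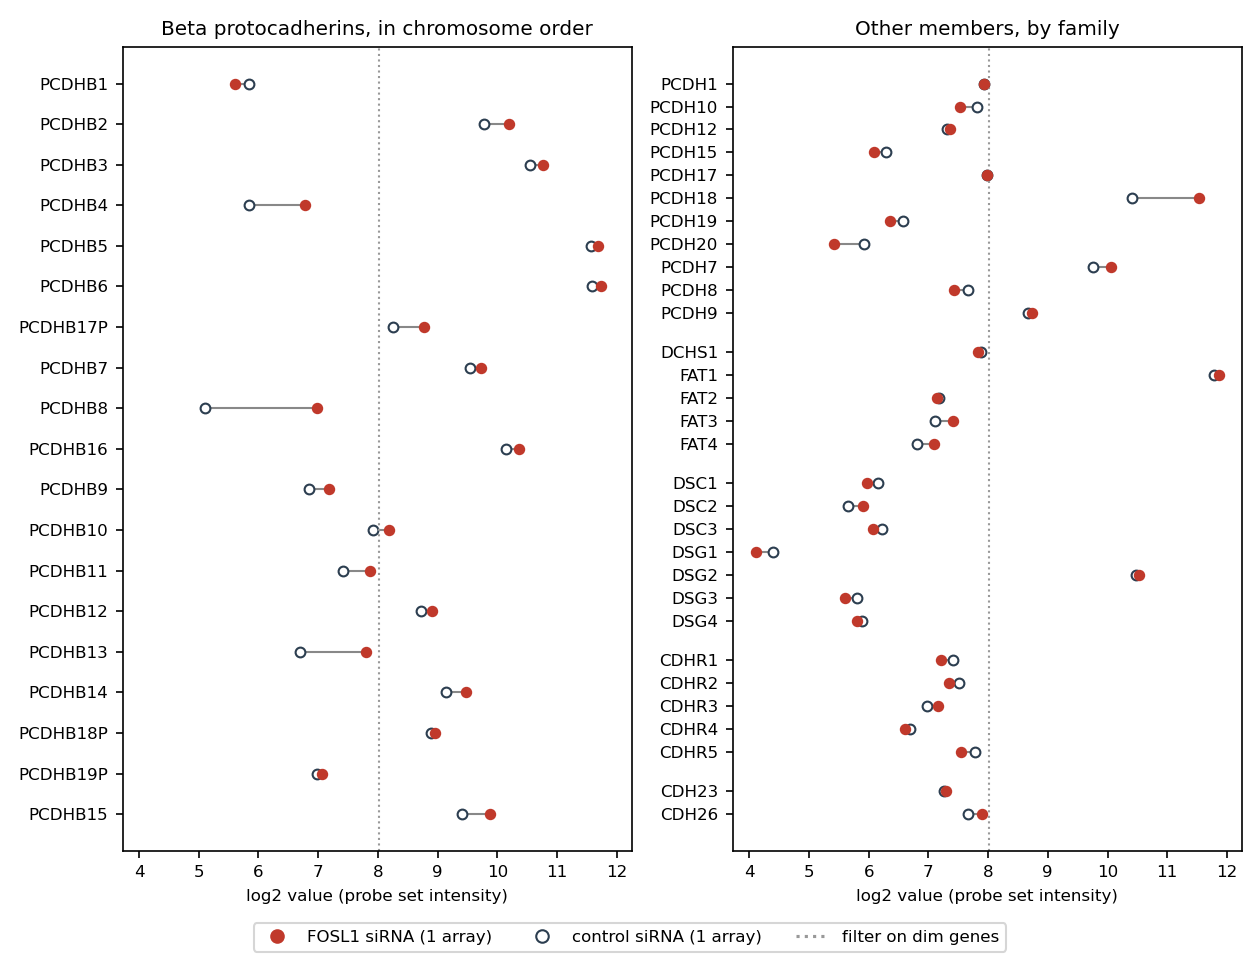
Log2 value of every member on each array, with FOSL1 siRNA as filled red points and control siRNA as open points (1 array each), beta protocadherins in chromosome order on the left and the other members by family on the right. The dotted line is the filter on dim genes at 8.02, and in the left panel the red point lies to the right of the open one for 18 of 19 genes, PCDHB1 being the exception.

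The neighbours of the beta genes did not share their direction. Within 500 kb on either side of the row, 14 other genes were named on the array. Of these, 3 had a difference above 0, where 45.4% of all named genes did. The 3 were WDR55 at 0.08, VTRNA1-1 at 0.02 and VTRNA1-2 at 0.23. VTRNA1-3, past the filter, was the lowest of the 14 at -0.56, with 8.98 with FOSL1 siRNA and 9.53 with control siRNA. The median of the 14 was -0.19, against 0.27 for the beta genes and -0.02 over all named genes. On one side, the histidyl-tRNA synthetase gene HARS1 had 9.53 with FOSL1 siRNA and 9.75 with control siRNA. On the other, SLC25A2, a mitochondrial ornithine carrier, had 7.47 with FOSL1 siRNA and 7.71 with control siRNA, and DIAPH1, a formin that nucleates actin, had 10.38 with FOSL1 siRNA and 10.51 with control siRNA. These neighbours were chosen after the beta genes had been seen, and the alpha and gamma protocadherins that flank the row were not among the named genes. Further along the same chromosome, the non-clustered PCDH1 and PCDH12 differed by 0.01 and 0.05.

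**Figure D2:**
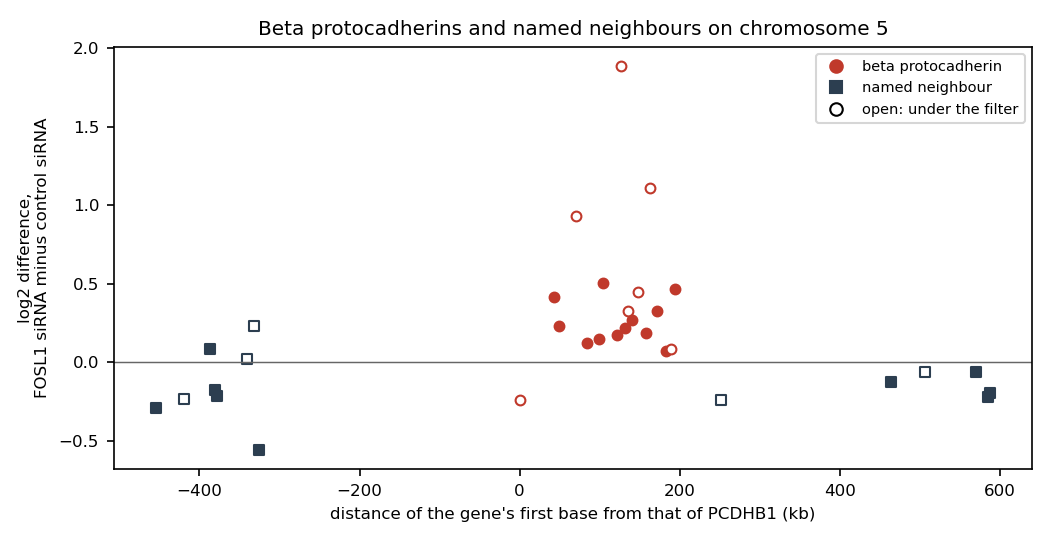
Log2 difference (FOSL1 siRNA minus control siRNA, 1 array each) of the beta protocadherins (circles) and of the 14 named neighbours (squares) against the distance of each gene's first base from that of PCDHB1 in kb, open symbols being genes under the filter. All beta genes but PCDHB1 lie above 0, whereas 3 of the 14 neighbours do.

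PCDH18 had the clearest difference of the bright members. It is a non-clustered protocadherin of the delta group, whose members guide cell sorting and movement in the embryo and the wiring of the brain. Its log2 value was 11.53 with FOSL1 siRNA and 10.41 with control siRNA, a difference of 1.12. This was the third highest of the 7442 genes past the filter, of which 0.0806% were at least 2-fold higher. The difference stayed between 1.11 and 1.17 under every rescaling tried, though scaling could move it little on arrays of nearly the same distribution. Its RefSeq window held no AP-1 motif. PCDH18 was measured by 1 probe set, so no second measurement on these arrays bears on it.

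The other non-clustered protocadherins lay on both sides of 0. PCDH7, a delta protocadherin studied for its part in the spread of cancer cells, had 10.06 with FOSL1 siRNA and 9.75 with control siRNA, a difference of 0.30. PCDH9, of the same subgroup and strongly expressed in brain, had 8.74 with FOSL1 siRNA and 8.66 with control siRNA on its brighter probe set and 3.24 with FOSL1 siRNA and 3.25 with control siRNA on its dimmer one. The 8 members of this family under the filter differed by between -0.50 and 0.05. PCDH20 was at the lower end, with 5.41 with FOSL1 siRNA and 5.92 with control siRNA, and at -0.50 it had the lowest difference of all 49 members, 1.42-fold lower. PCDH10, often silenced by promoter methylation in tumours, had 7.53 with FOSL1 siRNA and 7.81 with control siRNA, and PCDH8, the counterpart of the frog paraxial protocadherin, had 7.43 with FOSL1 siRNA and 7.67 with control siRNA. PCDH19, mutated in a form of epilepsy, had 6.36 with FOSL1 siRNA and 6.58 with control siRNA. PCDH15, a tip link protein of the inner ear, had 6.09 with FOSL1 siRNA and 6.28 with control siRNA. These 4 dim genes thus lay between -0.27 and -0.19, while PCDH17 was at 0.00 on its brighter probe set and at -0.09 on its dimmer one. The family's median of 0.00 has no direction, and it was -0.04 both after the span trend was taken out and when all probe sets of a gene were averaged.

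FAT1, a giant cadherin that organises actin at cell edges, had 11.87 with FOSL1 siRNA and 11.79 with control siRNA. That difference of 0.08 was under the SD between probe sets, and FAT1 was the one member of its family past the filter. The dim members FAT3 and FAT4 had differences of 0.30 and 0.29, with FAT3 at 7.41 with FOSL1 siRNA and 7.11 with control siRNA and FAT4 at 7.10 with FOSL1 siRNA and 6.81 with control siRNA. DCHS1, the ligand of FAT4, had 7.83 with FOSL1 siRNA and 7.89 with control siRNA, and its 3 probe sets gave differences of -0.06, -0.02 and -0.41. FAT2, at -0.02, had no clear direction, and 4 of the 5 genes, in place of 3, were above 0 with quantile normalization or with a trend on level taken out.

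Of the desmosomal cadherins, DSG2 alone passed the filter. DSG2 is the desmoglein of simple epithelia and heart, and it had 10.52 with FOSL1 siRNA and 10.48 with control siRNA, a difference of 0.04. The other 6 had log2 values from 4.11 to 6.06 with FOSL1 siRNA and from 4.39 to 6.21 with control siRNA. Among these 6 were DSG1 and DSG3, the targets of autoantibodies in pemphigus, with differences of -0.28 and -0.19. DSC1, DSC3 and DSG4, of stratified epithelium and hair, had differences of -0.18, -0.15 and -0.08. DSC2 stood on the other side at 0.24, with 5.90 with FOSL1 siRNA and 5.66 with control siRNA. In all, 2 of the 7 were above 0, and 1 of the 6 under the filter was, where 41.0% of genes under it were.

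The remaining members were all under the filter. Of the 5 CDHR genes 1 was above 0, where 41.0% of genes under the filter were. Below 0 were CDHR5 and CDHR2, which link microvilli in the gut, at -0.25 and -0.16, CDHR1, a photoreceptor cadherin, at -0.19, and CDHR4 at -0.07. CDHR3, an airway protein and the receptor of rhinovirus C, was at 0.19, with 7.16 with FOSL1 siRNA and 6.97 with control siRNA. CDH26 had 7.90 with FOSL1 siRNA and 7.66 with control siRNA, a difference of 0.24. CDH23, which pairs with PCDH15 in the tip link, had 7.29 with FOSL1 siRNA and 7.26 with control siRNA, and its difference of 0.03 turned below 0 after the span trend was taken out.

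**Figure D3:**
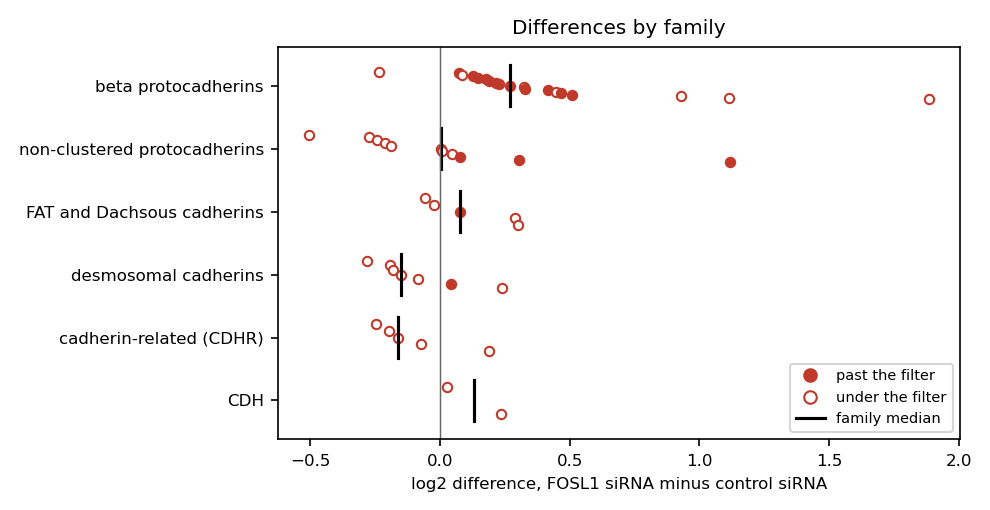
Log2 difference (FOSL1 siRNA minus control siRNA, 1 array each) of the 49 members by family, filled where the gene passed the filter and open where it did not, with the family median as a black bar. The beta protocadherins have the highest median, 0.27, and the CDHR genes the lowest, -0.16.

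Over all 49 members, 32 had a difference above 0 and the median was 0.08, and the beta genes made up 18 of those 32. Of the other 30 members 14 were above 0, with a median of -0.04, close to the 45.4% and -0.02 of all named genes. All 17 members past the filter were above 0, with a median of 0.22, where 49.8% of genes past the filter were. Of these 17, 12 were beta genes, whose shared signal was not tested, and PCDHB10 passed only through the array with FOSL1 siRNA. With the filter, 1 member (PCDH18) was at least 1.5-fold higher, against 1.13% of genes past the filter, and 0 were at least 1.5-fold lower, against 0.766%. Without it, 4 members exceeded 1.5-fold toward higher values, against 1.91% of all named genes. In the lower direction 0 members did, against 1.43% of all named genes. PCDHB8, PCDHB13 and PCDH18 were at least 2-fold higher, where 0.255% of all named genes were.

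**Figure D4:**
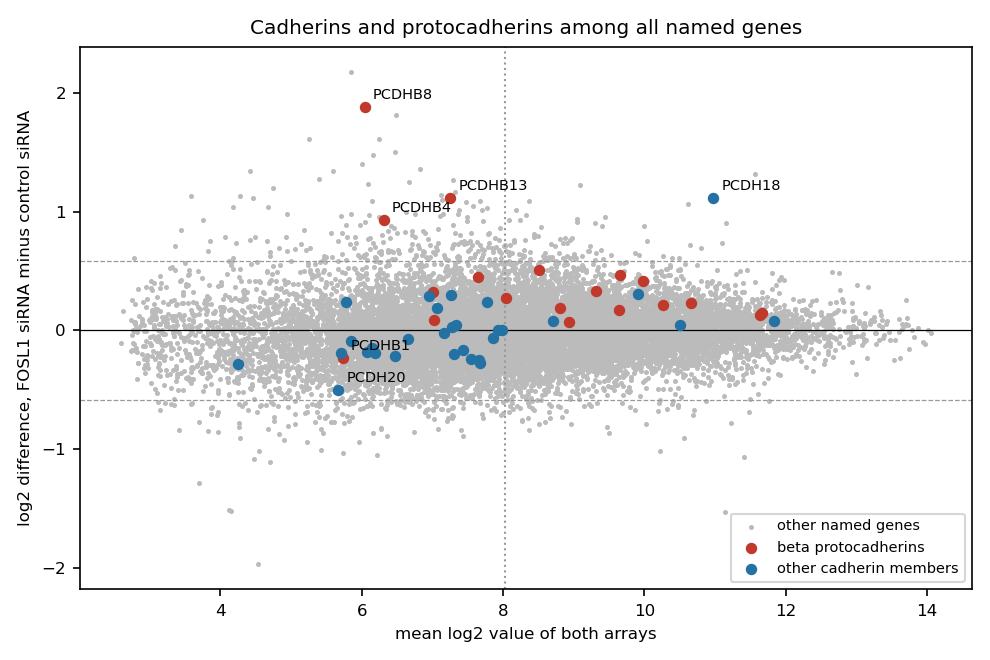
Log2 difference (FOSL1 siRNA minus control siRNA, 1 array each) against mean log2 value of both arrays for all 14884 named genes (grey), with beta protocadherins in red and other members in blue, dashed lines at 1.5-fold and a dotted line at the filter. PCDH18 lies at 1.12 among bright genes, and PCDHB8, PCDHB13 and PCDHB4 lie at 1.89, 1.11 and 0.93 left of the filter.

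Genes that work with cadherins lay near the array as a whole. Of 82 partner genes listed, 54 were named on the array and 47 passed the filter, 27 of them above 0, where 49.8% of genes past the filter were, and their median was 0.02, against -0.00 over those genes. None of the 47 reached 1.5-fold, which 1.13% of genes past the filter did toward higher and 0.766% toward lower values. In each subgroup the members with the largest differences among those past the filter are given. JUP, or plakoglobin, the catenin shared by adherens junctions and desmosomes, had 8.75 with FOSL1 siRNA and 8.46 with control siRNA, while the catenin ARVCF had 8.08 with FOSL1 siRNA and 8.29 with control siRNA. PKP3, a desmosomal plaque protein, had the largest difference of the list at -0.50, with 8.14 with FOSL1 siRNA and 8.64 with control siRNA. Beta-catenin and alpha-catenin were not among the named genes.

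Of the nectins and actin linkers, EPB41L5 differed by 0.24 and NECTIN3, a nectin, by -0.03, while NECTIN4, under the filter, differed by -0.23. The regulators that repress or activate E-cadherin had, past the filter, ZEB1 at 0.11 and SNAI1, or Snail, at -0.27, while TWIST1, under the filter, was at 0.37. The sheddase ADAM17 had 10.66 with FOSL1 siRNA and 10.36 with control siRNA, a difference of 0.30, and PSEN2, a gamma-secretase subunit, differed by -0.28. In the WAVE complex, which protocadherins can bind to reach actin, NCKAP1 differed by 0.04 and ABI1 by -0.17. In the FAT and planar polarity group, FJX1 differed by 0.22, the receptor FZD3 by 0.17 and LIX1L by -0.25. None of these 5 subgroups, over their genes past the filter, lay all on one side of 0, except that the 3 WAVE genes were all below it after the span trend was taken out.

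CTCF and the cohesin complex fold the cluster so that an enhancer meets a promoter, and SMCHD1 keeps clustered genes silent. All 9 named regulators passed the filter and had differences above 0, where 49.8% of genes past the filter did, with a median of 0.12. SMCHD1 had 10.60 with FOSL1 siRNA and 10.24 with control siRNA, a difference of 0.36, whereas CTCF, with 11.01 on both arrays, and the cohesin subunit RAD21 each differed by 0.01. After the span trend was taken out, 8 of the 9 were above 0 and the median was 0.08, and with quantile normalization 8 of the 9 were above 0 and the median was 0.11. Whether these differences bear on those of the beta genes was not tested.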

How the data were processed

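The deposited table held 1 value per probe set and array for 53427 probe sets, taken as log2 intensities from their range of 2.23 to 14.81. How background was corrected and probes were combined and normalized is not stated in the labels. The deposited log2 values had a median of 6.885 on each array, and sorted values differed by at most 0.0301, as quantile normalization leaves them. A shift in total RNA could therefore not be seen. Total RNA was labelled for a whole-transcript Affymetrix array, per the labels' protocols.

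Symbols came from the platform table, which named 16098 probe sets and 14884 genes, all matched by Entrez ID to RefSeq (GRCh38.p14). The brightest probe set stood for a gene. Members and lists were chosen with earlier results of these data known. Named were FOSL1, members past the filter or at least 1.5-fold different, and the partner genes with the largest positive and negative difference of each subgroup among those past the filter. Dim members, partners, neighbours and markers named beyond this were chosen after their values were seen. Computation used Python 3.11.15, pandas 2.3.3 and statsmodels 0.14.6 (lowess, fraction 0.3), and was tested on simulated data. The alternatives were 2 scalings, 2 trends removed, other filters, a mean of probe sets and a 2-fold threshold. Precision is limited by having 1 array per condition.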

Additional observations from a re-analysis of the deposited data

How the results depend on the processing

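Alternatives for the beta protocadherins alone were chosen after seeing the data. Under the rescalings, the removal of trends and the mean of probe sets, 100 values of the 20 members past the filter or at least 1.5-fold different kept their direction. The largest move was 0.0915, under the probe set SD of 0.169, which rests on bright genes only, and 19 values were unaltered by construction. Scaling could move little because the arrays had nearly the same distribution. Of members past the filter, 1 was at least 1.5-fold higher, and the count was 2 after the span trend was taken out (PCDH18 and PCDHB17P) and 4 without the filter, which let dim genes in. The count at least 1.5-fold lower was 0 throughout. Their median stayed between 0.08 with no filter and 0.28. Of the beta protocadherins, 3 were at least 1.5-fold higher with no filter and 0 with the filter at the median or the 75th percentile, and at the 75th percentile all 7 left were above 0, fewer because fewer were tested. No paired analysis was possible because each condition had 1 array, and no array could be left out.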
